A study of Brachypodium distachyon and Sorghum bicolor and Panicum virgatum with 44 samples.

Results

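Plants of the temperate model grass Brachypodium distachyon were exposed to opposite temperature stresses, and their shoot transcriptomes were compared directly with each other. The comparison takes 4 RNA-seq libraries, 2 of cold and 2 of heat, out of 10 RNA-seq libraries and 44 samples in the series. They were selected by their stress label and not by expression values. All plants were of strain Bd21, were germinated in soil at a constant 20 °C under long days, and were stressed on day 21, starting 10 h into the light period. Cold plants were moved to 4 °C and heat plants to 40 °C, and all above ground tissue was collected after 12 h. Control plants stayed at 20 °C; their hour of harvest and the number of plants in each library are not given in the sources used here. The 2 control libraries show on which side each gene moved, and like the other libraries they entered the statistical fit and its estimate of the spread. Drought libraries (roots removed from soil and dried with paper) and submergence libraries (plants fully under water) entered it too, and a few of their values are given beside the cold and heat values.

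Cold and heat call on different arms of plant physiology. In the cold, plants of temperate climates switch on transcription factors and downstream proteins that prepare cells for dehydration and freezing, a process known as cold acclimation. Under heat, proteins unfold, and heat stress transcription factors switch on chaperones, which bind unfolded proteins and help them refold.

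Libraries held between 13409482 and 17978729 expected counts, the fractional read counts per gene that RSEM estimates, so the 4 libraries were of similar depth. Across the tested genes, log2 CPM (reads scaled to a common library total) correlated at 0.976 between the cold replicates and at 0.983 between the heat replicates, and between 0.867 and 0.887 across the stresses. These are correlations across genes, which are not independent replicates. Control libraries correlated at 0.904 to 0.926 with cold and at 0.946 to 0.954 with heat. Libraries were scaled by TMM, a method that assumes that most genes do not change, with factors of 0.845 and 0.853 in cold against 1.18 and 1.12 in heat. All CPM values below are TMM scaled, and direction depends on that scaling, as given with the counts. Of the tissue markers, only 1 chlorophyll a-b binding gene could be recognised, Bradi1g24870, with means of 3636 TPM (RSEM's transcript share, corrected for length) in cold and 3250.2 TPM in heat, so the labelled tissue could be checked no further.

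The first question was how many genes separate the stresses. Of 23494 genes tested with edgeR's quasi-likelihood test, 9923 (42.2%) differed between cold and heat at a Benjamini-Hochberg adjusted p under 0.05, with 5083 (21.6%) higher in cold and 4840 (20.6%) higher in heat. An unadjusted p under 0.05 was reached by 12045 genes (51.3%). The cold and heat libraries did not overlap for 73.8% of all tested genes, and overlapped for 6 of the called genes. Although the split was close to even, the large differences lay mainly on the cold side. When the difference also had to reach 1 on the log2 scale, 2991 genes (12.7%) were higher in cold and 3054 (13%) higher in heat. At 2 or more the counts were 1427 (6.07%) and 958 (4.08%), at 3 or more 831 (3.54%) and 284 (1.21%), and at 5 or more they were 290 (1.23%) and 60 (0.255%), although fitted fold changes of genes without a read on one side depend on the prior count. The even split holds under TMM and under the size factors of DESeq2 (5210 and 4738). With no correction beyond library size the median of all genes went from -0.02 to -0.45 on the log2 scale, and 2787 genes were higher in cold and 9515 higher in heat, while upper quartile scaling gave 3776 and 6748. Leaving out cold replicate 1 reduced the genes higher in heat to 3085. In bulk tissue, fewer cells of a type and less RNA per cell cannot be told apart.

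**Figure D1:**
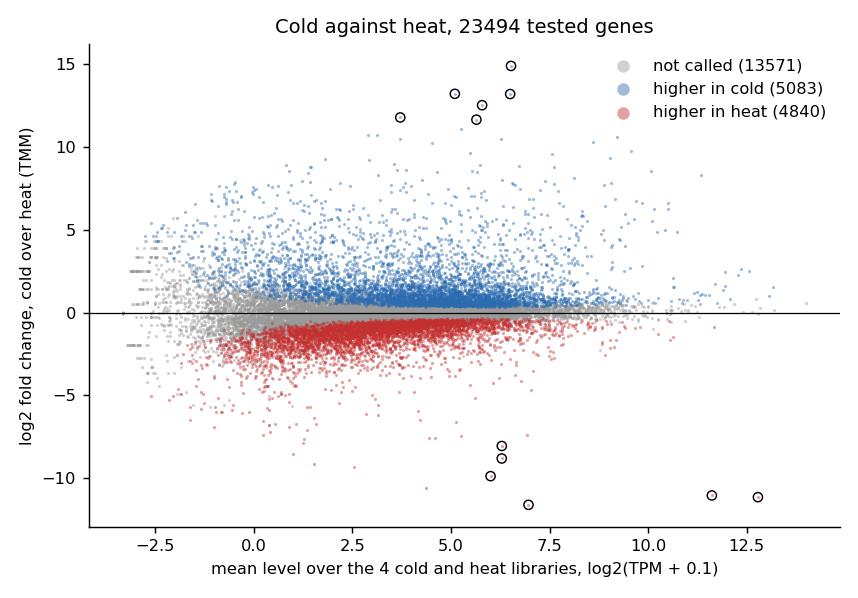
Each point is 1 of 23494 tested genes, placed by its mean level over the 4 cold and heat libraries, as log2(TPM + 0.1), and by its log2 fold change of cold over heat under TMM scaling. Blue genes (5083) were called higher in cold, red genes (4840) higher in heat, grey genes were not called, and open circles mark the 12 genes with the largest changes at 10 CPM or more; the circled heat genes include a pair of the most abundant transcripts.

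The genes that separated the temperatures most were nearly silent on one side. The rule for naming them asked for a mean of at least 10 CPM over the 4 libraries and libraries that do not overlap. On the cold side, Bradi3g28210 was at 420.5 and 142 CPM in cold replicates 1 and 2, had no read in either heat library, and lay at 0.156 and 0.137 CPM in control. Set against a floor of 3 counts per heat library, this gene was at least 815-fold higher in cold, a bound that uses the lower of the cold replicates, which lay far apart. Bradi1g73680 was at 100.3 and 74.4 CPM in cold, at 0.156 and 0.0683 CPM in control and at 12.2 and 14.9 CPM in drought, without a read in heat, which makes it at least 427-fold higher in cold. Bradi5g00673 reached 44.6 and 20.3 CPM in cold and 57.4 and 36.1 CPM in drought, against 0.235 and 0.0683 CPM in control and none in heat, a difference of at least 116-fold. In drought the first of this pair lay below both cold libraries but far above control, and the second overlapped the cold libraries. The other 3 leading genes on this side, Bradi4g35570, Bradi4g35590 and Bradi4g35620, are close neighbours and are described together below. Adjusted p-values of the 6 genes ranged from 1.34e-06 to 0.000134. The deposited files do not pair these IDs with gene names, and no function is given for them here.

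On the heat side the leading genes included transcripts that became abundant in the whole library. Bradi5g04080 stood at 2.20 and 2.71 CPM in cold, 2.42 and 1.85 CPM in control and 3849 and 7427 CPM in heat, a log2 fold change of cold over heat of -11.16 ± 0.48 (SE). Bradi4g09120 followed it closely, with 3.56 and 1.66 CPM in cold, 6.10 and 2.46 CPM in control and 3977 and 7221 CPM in heat (-11.06 ± 0.64). For both genes the cold libraries overlapped control, so the difference between the stresses came from the heat side. Bradi2g23250, with 1 read in each cold library (0.0847 and 0.0875 CPM), was at 244 and 357 CPM in heat, a ratio of 3493 (95% interval 967 to 28842). Intervals of such ratios are exact Poisson intervals for the few reads on the low side and cover counting error only. Bradi2g02410 had 1 read in the first cold library and none in the second or in control, and lay at 32.6 and 66.3 CPM in heat, a ratio of 1168 (95% interval 209.7 to 46151). Bradi5g02037 was at 0.423 and 0.525 CPM in cold and 170.4 and 266 CPM in heat (-8.82 ± 0.90). In these 3 genes every heat library lay above every cold and control library. Bradi2g05374 was at 0.0847 and 0.175 CPM in cold and 26.8 and 47.3 CPM in heat, a ratio of 285 (95% interval 97.6 to 1384), and its drought replicates disagreed, at 1.52 and 14.9 CPM.

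**Figure D2:**
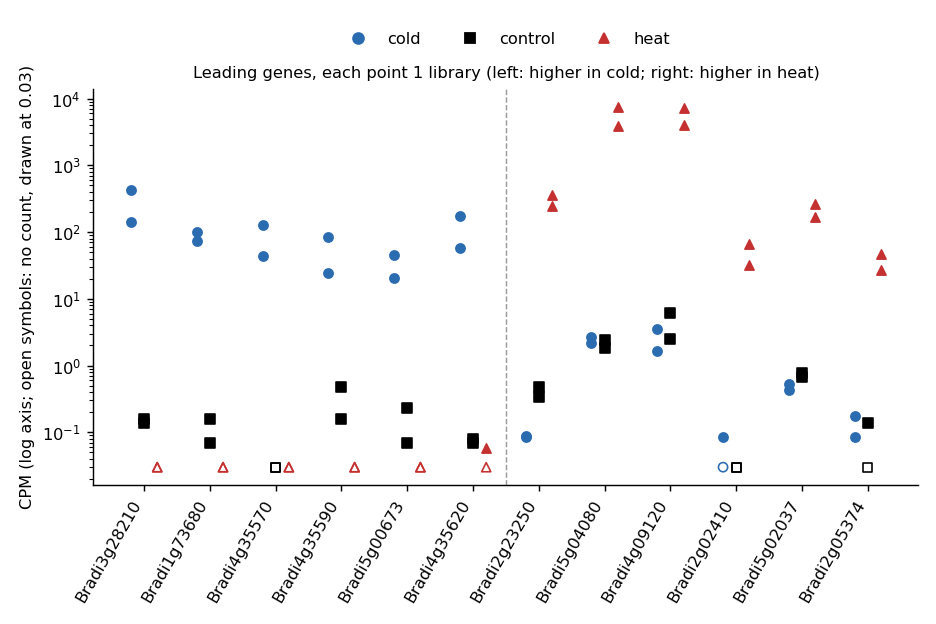
TMM scaled CPM on a log axis of the 12 leading genes, 6 higher in cold on the left and 6 higher in heat on the right; each symbol is 1 library of cold (blue circles), control (black squares) or heat (red triangles), and open symbols drawn at 0.03 had no count. The control libraries sit near the heat libraries on the left and near the cold libraries on the right.

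Seen from control, the 12 leading genes were each called in 1 temperature stress only. Where control was near 0 CPM, as in Bradi3g28210, a fall in the other stress could not have been called. All 6 of the cold side were called higher in cold than in control (adjusted p of at most 0.00029, in Bradi4g35570), and none was called in heat against control. On the heat side all 6 were called higher in heat than in control (adjusted p of at most 0.00177, in Bradi2g05374), and none was called in cold against control. Both comparisons share the control libraries, so the values are given side by side and not as independent results.

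The most abundant transcripts that differed by at least 1 on the log2 scale behaved differently. Bradi3g26391 was at 10992 and 15835 CPM in cold, 12090.0 and 15037 CPM in control and 4234 and 4816 CPM in heat (1.57 ± 0.32). Here cold overlapped control and heat lay below both, with a log2 fold change of -1.58 against control. Bradi4g37210 was at 9818 and 11270.0 CPM in cold, 4564 and 5694 CPM in control and 1666 and 2048 CPM in heat (2.51 ± 0.44). Bradi2g16290 showed the same order, with 5828 and 6870.1, 3068 and 3103 and 1088 and 962 CPM (2.63 ± 0.40). For these last genes control lay between the stresses, and heat against control was called (-1.47 and -1.59) whereas cold against control did not pass the test (adjusted p = 0.112 and 0.0817). On the heat side, beside Bradi5g04080 and Bradi4g09120, the highest was Bradi4g10920, at 464 and 402 CPM in cold, 331 and 357 CPM in control and 924 and 1485 CPM in heat (-1.47 ± 0.23).

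A run of neighbouring genes on chromosome 4 stood out by its position. From Bradi4g35570 to Bradi4g35655, 9 consecutive tested IDs were called higher in cold and differed by at least 1 on the log2 scale. In the order of the IDs this was the longest run that met both conditions. Under the same conditions the next longest cold run held 6 IDs (Bradi4g10465 to Bradi4g10510), and the longest heat runs held 5. Runs of called genes without the limit on size were not counted. Bradi4g35570 was at 43.9 and 129 CPM in cold without a read in heat or control, at least 252-fold higher in cold. Bradi4g35590 was at 24.6 and 84.0 CPM in cold, without a read in heat (at least 141-fold). Bradi4g35620 was at 58.5 and 174 CPM in cold with 1 read in 1 heat library, a ratio of 4004 (95% interval 719 to 158150.0). In all 3 the second cold library was well above the first, and both lay far above every other library. Bradi4g35611 (39.2 and 142 CPM) and Bradi4g35600 (28.6 and 93.6 CPM) had the same pattern between the cold replicates. Bradi4g35642 was lower in cold, at 5.84 and 22.7 CPM, and Bradi4g35655 lower still, at 1.10 and 1.40 CPM, with no read in any other library. Bradi4g35580, at 10.2 and 15.9 CPM in cold, likewise had no read in the other 8 RNA-seq libraries. DESeq2 gave Bradi4g35580 an adjusted p of 0.0794, and no other gene of the run lost its call in an alternative that tested it. Bradi4g35655 was not tested with the filter of at least 1 CPM in 2 libraries or without cold replicate 2. Only Bradi4g35650 was also raised elsewhere, with 15.7 and 57.2 CPM in cold, 12.7 and 16.3 CPM in drought, 3.18 and 2.48 CPM in submergence, 0.704 and 0.683 CPM in control and 0.349 and 0.149 CPM in heat. Neighbouring copies of a gene family can share reads, so the division of counts among these IDs is uncertain. Chromosome 4 as a whole was not richer in genes called higher in cold. Of its tested genes 18.2% were higher in cold and 23.9% higher in heat, against 21.9% and 20.4% on chromosome 1.

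The next question was on which side of control the genes of each direction lay. Among the 5083 genes higher in cold, both control libraries fell between the stresses for 2121 (41.7%, against 10.1% of all tested genes). A further 1244 were above control in cold while heat overlapped control, and 907 were below control in heat while cold overlapped it. Both stresses lay above control for 469 and below it for 319. Among the 4840 genes higher in heat, control lay between the stresses for 2237 (46.2%, against 10.8% of all tested genes), only heat stood apart for 1035, and only cold stood apart for 984. Thus the commonest arrangement in either direction was control in the middle. These genes were selected by a gap between the same cold and heat libraries, which by itself favours that arrangement. The shares of all tested genes are therefore not a like background. Under library size scaling control lay between for 844 of the genes then higher in cold and for 5144 of those higher in heat.

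**Figure D3:**
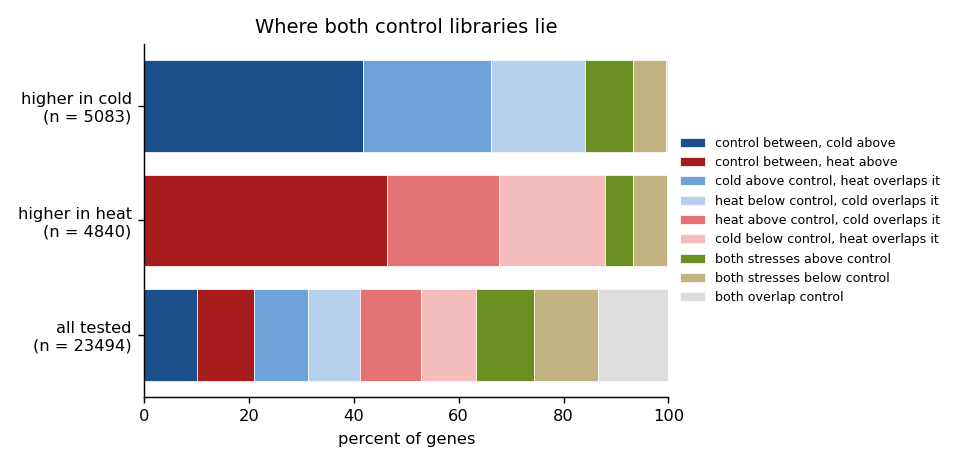
Percent of genes by the place of both control libraries relative to both libraries of each stress, for genes higher in cold, genes higher in heat and all tested genes. Control between the stresses is the widest segment for both directions, 41.7% and 46.2%, against 10.1% and 10.8% of all tested genes. The genes of each direction were selected by the gap between the same stress libraries, which by itself favours that arrangement.

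Single genes with a recognised protein domain show each arrangement. An ORMDL gene, Bradi1g28700, a family that restrains sphingolipid synthesis in yeast, was at 4.91 and 7.70 CPM in cold, 15.2 and 14.4 CPM in control and 33.8 and 35.2 CPM in heat. It was called in both directions from control, -1.23 in cold and 1.22 in heat. Bradi1g17090, with the domain of nicotianamine synthase, which makes a metal chelator that carries iron and zinc, was at 197 and 195 CPM in cold, 175 and 193 CPM in control and 33.9 and 29.7 CPM in heat. Its cold level was close to control and its heat level far below (-2.53). A GATA zinc finger gene, Bradi1g37480, was below control in both stresses, at 8.55 and 18.0 CPM in cold and 68.9 and 60.3 CPM in heat against 83.8 and 98.5 CPM in control, and the drop from control passed the test in cold alone. The GRAS domain gene Bradi1g25370 was above control in both, at 169 and 215 CPM in cold and 30.6 and 29.5 CPM in heat against 26.7 and 23.3 CPM, and the rise passed the test in cold alone.

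By the test against control, 2369 of the genes higher in cold were also called up in cold and 1485 called down in heat, while 28 were called down in cold and 55 up in heat. Of the genes higher in heat, 1455 were called up in heat and 1653 down in cold, while 28 were called down in heat and 14 up in cold. In all, 5127 genes (21.8%) were called in cold against control, 2864 (12.2%) up and 2263 (9.63%) down, and 3973 (16.9%) in heat against control, 1928 (8.21%) up and 2045 (8.7%) down. Leaving out any single control, cold or heat library lowered these last totals, least so for cold replicate 2. Such a fit has a single library in a group, so a fall does not show on which library the totals rest.

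The level of a gene was related to its direction. The median over the cold and heat libraries was 21.3 TPM for genes higher in cold, 7.97 TPM for genes higher in heat and 9.40 TPM for genes not called. When tested genes were divided into 10 bins of equal size by mean TPM, the share higher in cold rose from 12.5% in the lowest bin to 36.5% in the highest (median 132 TPM). The share higher in heat was 12.0% in the lowest bin, 30.2% in the fourth and 11.2% in the highest. Another scaling of the libraries shifts all bins together, and the part that sequencing depth plays in this relation was not tested. Effective lengths were similar, with medians of 1908, 1697 and 1719 bases for genes higher in cold, higher in heat and not called.

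Genes close to the detection limit were found on both sides. Among genes higher in cold, 280 had at most 3 counts in each heat library and 84 had none, and 26 of the 280 had a mean of at least 10 CPM in cold. Among genes higher in heat, 308 had at most 3 counts in each cold library and 38 had none, and 8 of the 308 reached 10 CPM in heat. At this depth such genes can be called low but not absent. The cold replicates were the less alike. Among 379 genes higher in cold by at least 3 on the log2 scale and at 10 CPM or more, 132 were over 2-fold apart between cold replicates, with replicate 2 the higher in 145 of the 379. Among 38 such genes on the heat side, 3 were over 2-fold apart between heat replicates.

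Pfam protein domains were available for 1075 tested genes, 1073 of them on chromosome 1, from a shortened table that the study supplies. That table lists predicted miRNA targets, so the domain groups hold such genes only and not all members of a family. Of these 27.4% were higher in cold and 17.9% higher in heat, with a median log2 fold change of 0.13, which is the background for the groups below. The genes named here for their size of change were chosen after their values were seen. The largest difference among transcription regulators was in Bradi1g04150, a NAM domain gene of the NAC class of plant transcription factors. It was at 2081 and 2692 CPM in cold and 2297 and 2580.3 CPM in drought, against 28.0 and 20.3 CPM in heat and 30.3 and 34.0 CPM in control (6.63 ± 0.28). Heat therefore left this gene near its control level, at which the difference did not pass the test (adjusted p = 0.233). A second NAM domain gene, Bradi1g14467, went the other way at a far lower level, with 2.62 and 2.10 CPM in cold, 3.05 and 3.01 CPM in control and 6.57 and 10.7 CPM in heat (-1.87 ± 0.31). Of the 4 tested NAC genes these were the only ones called. The GRAS domain gene Bradi1g23350, of a family that includes repressors of gibberellin signalling, was at 665 and 908 CPM in cold and 105 and 72.8 CPM in heat, with control at 99.3 and 125 CPM (3.15 ± 0.27). With Bradi1g25370 it made 2 of 5 tested GRAS genes higher in cold, and 1 was higher in heat. Of 8 tested genes with a Myb-like DNA-binding domain 4 were higher in cold and 0 higher in heat (3 and 0 under library size scaling). Bradi1g29680 was at 147 and 146 CPM in cold and 24.4 and 50.4 CPM in heat, and Bradi1g32330 at 105 and 75.6 CPM and 25.9 and 29.8 CPM. Helix-loop-helix genes gave 2 of 5 higher in cold, led by Bradi1g13980 at 55.0 and 36.7 CPM in cold and 12.8 and 21.5 CPM in heat (1.41 ± 0.29).

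Signalling and turnover genes changed in both directions. So did all genes with a domain, of which 27.4% were higher in cold and 17.9% higher in heat. Differences of the groups below from these shares were not tested. Protein kinase domains, the catalytic part of enzymes that phosphorylate proteins, were found in 39 tested genes, of which 14 were higher in cold and 6 higher in heat with a median of 0.28, which turned to 8 and 11 with a median of -0.15 under library size scaling. The kinase gene Bradi1g21310 was at 286 and 157 CPM in cold, 39.7 and 39.3 CPM in control and 42.9 and 45.6 CPM in heat (2.33 ± 0.24). Bradi1g06300 was at 88.3 and 53.9 CPM in cold and 16.1 and 13.7 CPM in heat, and Bradi1g48271 at 48.3 and 43.4 CPM and 9.06 and 9.75 CPM. In each of these 3 genes the cold libraries lay above all heat and control libraries. Bradi1g35350 was the largest difference the other way, with 5.33 and 3.24 CPM in cold and 16.1 and 21.2 CPM in heat (-2.12 ± 0.38). Among 10 genes with a RING finger, a domain of ubiquitin ligases that mark proteins for degradation, 4 were higher in cold and 2 higher in heat, which turned to 1 and 4 under library size scaling. Bradi1g13500 was by far the largest of them, at 50.0 and 56.4 CPM in cold, 35.6 and 41.9 CPM in drought, 4.85 and 3.55 CPM in control and 3.02 and 3.78 CPM in heat (3.96 ± 0.25). F-box genes, which choose the targets of another class of ubiquitin ligase, gave 1 of 10 higher in cold (Bradi1g18326, 7.28 and 6.73 CPM against 1.34 and 1.34 CPM in heat) and 3 higher in heat (such as Bradi1g31900, 4.23 and 4.55 CPM against 14.1 and 12.2 CPM). Library size scaling gave 1 and 5 of these.

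The protein phosphatases 2C, several of which hold abscisic acid signalling off in Arabidopsis, gave 3 of 8 higher in cold and 1 higher in heat. The shares of all genes with a domain were 27.4% and 17.9%. The median of these phosphatases was 0.29 and became -0.14 under library size scaling. Bradi1g03690 was at 65.9 and 62.7 CPM in cold, 26.6 and 28.7 CPM in control and 25.0 and 24.0 CPM in heat (1.39 ± 0.19). Bradi1g31080 was at 66.1 and 62.5, 42.7 and 41.3 and 26.6 and 24.8 CPM in the same order, with control between the stresses. Bradi1g33900 was low in both temperatures, at 2.79 and 2.80 CPM in cold and 6.51 and 7.06 CPM in heat, while drought took it to 583 and 668 CPM. In the auxin response list 2 of 5 genes were higher in cold and 0 higher in heat, with a median of 0.15 that became -0.29 under library size scaling. Both carry the AUX/IAA family domain. Bradi1g46602 was at 51.9 and 51.9 CPM in cold and 15.5 and 17.8 CPM in heat. Bradi1g34340 was at 85.8 and 52.4 CPM in cold and 25.6 and 20.3 CPM in heat.

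Values of some enzyme and transporter genes, chosen after their values were seen, follow. Among all genes with a domain, 27.4% were higher in cold and 17.9% higher in heat. Bradi1g44170, with the NUDIX domain of enzymes that split nucleoside diphosphate compounds, was at 136 and 323 CPM in cold, 3.05 and 2.12 CPM in control and 5.00 and 1.59 CPM in heat (6.14 ± 0.57). Bradi1g32840, a plastocyanin-like copper protein, was at 368 and 142 CPM in cold, 1026 and 836 CPM in drought, 8.05 and 8.06 CPM in control and 9.30 and 6.46 CPM in heat (5.02 ± 0.44). Both genes lay near control in heat, and the cold replicates of each were more than 2-fold apart. Of 7 tested plastocyanin-like genes 2 were higher in each temperature, the second on the cold side being Bradi1g01610 (23.0 and 22.6 CPM in cold, 21.4 and 21.7 CPM in control, 4.30 and 5.77 CPM in heat) and the larger on the heat side Bradi1g45710 (50.4 and 47.7 CPM in cold, 119 and 93.1 CPM in heat). An alpha/beta hydrolase gene, Bradi1g10540, was at 564 and 206 CPM in cold, 40.5 and 39.2 CPM in control and 11.8 and 14.4 CPM in heat (4.88 ± 0.50). It was called up in cold and down in heat against control. Bradi1g06050, with an X8 domain that binds carbohydrate, was at 383 and 265 CPM in cold and 16.3 and 13.7 CPM in heat (4.44 ± 0.30). Bradi1g30220, of the NIPA family of magnesium transporters, was at 36.2 and 34.4 CPM in cold, 7.98 and 7.65 CPM in control and 5.40 and 6.81 CPM in heat (2.53 ± 0.19). A sodium/hydrogen exchanger gene, Bradi1g18360, was at 211 and 71.2 CPM in cold and 26.7 and 23.6 CPM in heat, and a peroxidase gene, Bradi1g33740, at 129 and 51.9 CPM and 20.6 and 18.7 CPM. The last pair had higher levels still in drought, at 488 and 625 CPM and 358 and 417 CPM.

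Chaperones and their regulators, the group best known from heat, changed in both directions among the few that carried a recognised domain. Of 11 tested DnaJ genes, which encode partners that drive HSP70 chaperones, 3 were higher in heat and 2 higher in cold. Among all genes with a domain 17.9% were higher in heat and 27.4% higher in cold, and a difference from these shares was not tested. The DnaJ counts became 8 and 1 under library size scaling and 6 and 1 under upper quartile scaling. Against control, 4 of the DnaJ genes were called up in heat. Bradi1g20140 was at 2.03 and 3.85 CPM in cold, 4.30 and 3.14 CPM in control and 17.3 and 20.8 CPM in heat (-2.70 ± 0.30), and Bradi1g01507 at 32.8 and 34.3, 34.3 and 36.2 and 68.7 and 75.1 CPM (-1.10 ± 0.13). In both, cold did not differ from control by the test (adjusted p = 0.491 and 0.737). On the cold side Bradi1g30113 was at 118 and 23.6 CPM in cold and 4.59 and 15.4 CPM in heat, but it lost the call without cold replicate 1 (log2 fold change 1.23, adjusted p = 0.152) and without heat replicate 1 (2.20, adjusted p = 0.0789), and its drought level was 254 and 272 CPM. Bradi1g44760, the other, differed by 0.36 ± 0.13, lost the call when any cold or heat library was left out (adjusted p from 0.0897 to 0.212), and had a log2 fold change of -0.07 under library size scaling. The 1 gene with the HSP90-like ATPase domain, which histidine kinases and gyrases share, was Bradi1g30130, at 447 and 482 CPM in cold, 492 and 440.1 CPM in control and 1329.7 and 1585 CPM in heat (-1.65 ± 0.22). Of 2 HSP70 genes Bradi1g32770 was the one called, and it was lower in heat, at 31.7 and 33.8 CPM against 64.7 and 54.7 CPM in cold and 51.5 and 50.4 CPM in control. Among 3 genes of the heat stress factor list, Bradi1g05550, with the DNA-binding domain of heat stress transcription factors, was at 10.6 and 9.97 CPM in cold and 35.3 and 36.0 CPM in heat (-1.79 ± 0.18). Bradi1g43705, which matches a heat shock factor binding protein and not a factor, differed by 0.56 ± 0.15 towards cold and lost the call without cold replicate 2 (0.48, adjusted p = 0.0787) or heat replicate 1 (0.37, adjusted p = 0.122) and under library size scaling (0.13, adjusted p = 0.493). Of 4 chaperonin genes 1 was called, Bradi1g37790, at 176 and 185 CPM in cold and 113 and 109.7 CPM in heat, and library size scaling ended that call (adjusted p = 0.158), while 2 other chaperonin genes were then called higher in heat. Upper quartile scaling gave 1 higher in cold and 2 higher in heat. Bradi1g02940, a calreticulin of the endoplasmic reticulum that binds unfolded glycoproteins, was at 472 and 480.1 CPM in cold and 757 and 927 CPM in heat, and lost the call without heat replicate 2 (-0.67, adjusted p = 0.0634). Small heat shock proteins, HSP100 proteins, dehydrins and C-repeat binding factors had no tested gene with a recognised domain, so these textbook groups are not analysed as groups. The domains cover only predicted miRNA targets, almost all of them on chromosome 1. Members of these groups may therefore be among the genes described by ID alone.

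Further genes higher in heat belonged to other classes. An AN1-like zinc finger gene, Bradi1g36050, a class that includes the stress-associated proteins of rice, was at 26.0 and 21.0 CPM in cold, 38.1 and 20.1 CPM in control and 124 and 212 CPM in heat (-2.84 ± 0.32). Bradi1g30740, with the domain of 3-oxoacyl-ACP synthase III, which starts fatty acid chains in plastids, was at 6.94 and 12.2 CPM in cold, 30.3 and 22.5 CPM in control and 68.3 and 85.1 CPM in heat (-3.00 ± 0.28), and was called in opposite directions from control in the stresses. Thioredoxins reduce disulfide bonds, and 2 of 5 were higher in heat and 0 higher in cold (3 and 0 under library size scaling). The shares of all genes with a domain were 17.9% and 27.4%. Bradi1g28090 was the larger, at 172 and 168 CPM in cold, 444 and 464 CPM in control and 596 and 549.7 CPM in heat, so that most of its difference lay below control in cold.

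The PPR proteins bind organelle transcripts and act in their editing, splicing and stability. Of 30 tested PPR genes 15 (against 17.9% of all genes with a domain) were higher in heat and 2 higher in cold, with a median log2 fold change of -0.65. Relative to all genes the median was -0.63, and -0.64 under each of the other 3 scalings. This relative median could not change much, since a scaling shifts all genes nearly alike. The counts became 24 and 1 under library size scaling and 18 and 1 under upper quartile scaling. This group was picked after the values were seen, and genes near its median level of 6.88 TPM were higher in heat in 26.1% to 30.2% of cases in the bins of that level. Bradi1g25240 was at 2.96 and 3.32 CPM in cold, 5.00 and 5.47 CPM in control and 11.4 and 12.2 CPM in heat (-1.91 ± 0.25). Bradi1g11480 was at 4.91 and 5.68, 11.8 and 8.82 and 19.3 and 19.9 CPM, and Bradi1g28980 at 6.69 and 5.77, 7.82 and 7.45 and 19.8 and 17.3 CPM, in the same order. In these 3 genes control lay between the stresses. Bradi1g08840 differed in that control, at 10.7 and 10.4 CPM, was the highest, with 2.71 and 2.01 CPM in cold and 7.49 and 8.55 CPM in heat. The larger exception towards cold was Bradi1g14760, at 24.9 and 19.2 CPM in cold and 10.9 and 11.8 CPM in heat (0.96 ± 0.20). Among 10 NB-ARC genes, a domain of immune receptors, 3 were higher in heat and 0 higher in cold (6 and 0 under library size scaling, 4 and 0 under upper quartile scaling), led by Bradi1g01250 at 26.2 and 21.3 CPM in cold and 59.3 and 77.6 CPM in heat (-1.53 ± 0.18). RNA recognition motif genes were split evenly, 3 and 3 of 12 (0 and 6 under library size scaling), with the largest difference in Bradi1g20360 (13.2 and 9.44 CPM in cold, 31.1 and 30.7 CPM in heat).

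**Figure D4:**
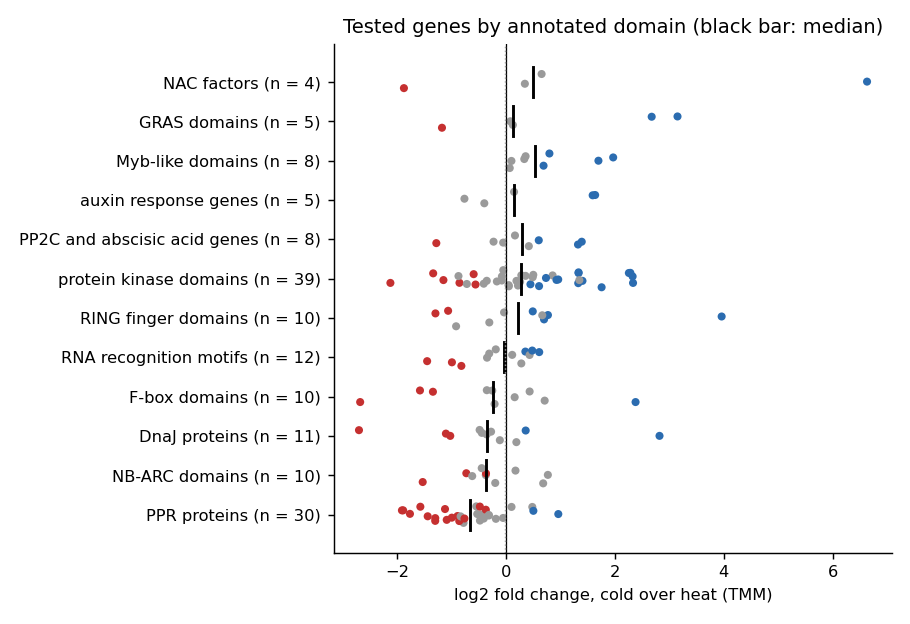
Log2 fold change of cold over heat (TMM scaled) of each tested gene in 12 groups of recognised domains, 1 point per gene; blue points were called higher in cold, red points higher in heat, grey points were not called, and the black bar is the median. The 30 PPR genes have a median of -0.65, and the NAC gene at the far right is Bradi1g04150.

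Other lists held few recognised members. Bradi1g48050, with the domain of raffinose synthase, an enzyme of protective sugars, was at 177 and 45.1 CPM in cold and 32.5 and 24.3 CPM in heat. Its cold replicates were far apart, and it lost the call without cold replicate 1 (0.67, adjusted p = 0.441), heat replicate 1 (2.19, adjusted p = 0.105) or heat replicate 2 (1.78, adjusted p = 0.170) and under library size scaling (adjusted p = 0.0762). A cellulose synthase gene, Bradi1g25107, was at 23.5 and 24.2 CPM in cold, 29.5 and 34.7 CPM in control and 7.79 and 9.65 CPM in heat (1.45 ± 0.29), and fell from control in heat. A xyloglucan endotransglucosylase gene, Bradi1g33817, was higher in heat (4.32 and 4.72 CPM in cold, 8.71 and 11.5 CPM in heat) and lost the call without cold replicate 1 (adjusted p = 0.0509) or heat replicate 2 (0.0622). Of 4 histone genes Bradi1g25400, a core histone, was higher in cold (97.3 and 63.8 CPM against 34.3 and 34.6 CPM), and the linker histone Bradi1g11350 was higher in heat (log2 fold change -0.46 ± 0.16), a call that was lost when any cold or heat library was left out (adjusted p from 0.0577 to 0.207). Under library size and upper quartile scaling 3 histone genes were higher in heat and 1 higher in cold. An aquaporin gene, Bradi1g45200, was at 89.2 and 115 CPM in cold and 63.9 and 51.5 CPM in heat, lost without cold replicate 2 (adjusted p = 0.0664) or heat replicate 2 (0.0826) and under library size scaling (0.132), which called 1 other aquaporin gene higher in heat. Bradi1g41970, with a carbohydrate-binding module of starch-debranching enzymes, was at 53.3 and 55.1 CPM in cold and 30.8 and 29.7 CPM in heat (not called under library size scaling, adjusted p = 0.0638), and the SYF2 splicing factor gene Bradi1g05360 at 42.0 and 22.9 CPM and 14.8 and 14.0 CPM. A chalcone isomerase gene of flavonoid synthesis, Bradi1g03840, was higher in heat (-0.77 ± 0.25) and lost the call without cold replicate 1 (adjusted p = 0.166) or heat replicate 1 (0.186). The chlorophyll a-b binding gene Bradi1g24870 was higher in cold (0.58 ± 0.20) and Bradi1g28130, with the pollen allergen domain that expansins carry, was higher in heat (-0.54 ± 0.20), and both lost the call without cold replicate 2 (adjusted p = 0.178 and 0.265), heat replicate 1 (0.101 and 0.119) or heat replicate 2 (0.151 and 0.144). Library size scaling also ended the call of Bradi1g24870 (adjusted p = 0.540). No gene was called in the lists of photosystem subunits, fatty acid desaturases, antioxidant enzymes, proteasome subunits, WRKY factors or other AP2 and ERF factors, which held 1 or 2 tested genes each (1 photosystem gene and 1 antioxidant gene were higher in heat under library size scaling), and 11 of the 36 lists had no tested member.

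The study was built around miRNA targets, so the same contrast was read for genes with a prominent cleavage site. In plants a miRNA pairs with an mRNA along most of its length and guides a cut in the middle of the paired stretch, and PARE sequences the cut ends. The deposited site table gives each site 1 abundance in TP10M (reads normalised to a common library size) and a prominence level up to 4, not split by temperature, so it marks a gene as a predicted target with cut ends at the site and does not give cutting in cold or heat. Sequences are shown for 13 of the miRNAs whose predicted targets are described, those of the families given first and of some single targets. Lower case letters are the mature sequence from the deposited table, 5′ to 3′, and capitals mark the seed, bases 2 to 8.
miR160a-5p to miR160d-5p: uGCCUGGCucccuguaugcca
miR160f: uGCCUGGCucccuguaugcc
miR160b-3p: gCGUGCAAggagccaagcaug
miR396a-5p: uCCACAGGcuuucuugaacug
miR169a-5p: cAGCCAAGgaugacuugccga
miR171a: uGAUUGAGccgcgccaauauc
miR172d: aGAAUCCUgaugaugcugcag
miR172b: gGAAUCUUgaugaugcugcau
miR168-5p: uCGCUUGGugcagaucgggac
miR159c: uUUGGUUUgaagggggcucug
miR528-5p: uGGAAGGGgcaugcagaggag
miR7753-5p: aUGUCUUCuuccuugcucauc
miR7752-5p: aUGCUCUUcccacugucauuuucc
The 5p arms of miR160 share 1 seed and differ at the 3′ end, where miR160f is 1 base shorter, and the 3p arm has a seed of its own.

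Of 190 genes with a site at Level 3 or 4, 146 were tested, and 46 (31.5%) were higher in cold and 22 (15.1%) higher in heat, 46.6% called against the background of 42.2%. Their median log2 fold change was 0.25. The balance turned under library size scaling, with 23 higher in cold, 40 higher in heat and a median of -0.18. Relative to all genes the median was 0.27 under each of the 4 scalings, but a scaling shifts all genes nearly alike. This relative median therefore could not change much and is no check of the difference. Level 3 also admits sites of 1 or 2 TP10M on transcripts with few PARE reads, and these counts include them. Most called genes with such sites were higher in heat, such as Bradi2g47960 and Bradi1g65295 at 1 TP10M. Bradi2g53510, at 2 TP10M, was higher in cold. The miR160 family led. In Arabidopsis and rice miR160 cuts mRNAs of auxin response factors, which switch auxin-regulated genes. Of its 7 tested target genes here 6 were higher in cold and 0 higher in heat, with a median of 1.44, and 4 and 0 with a median of 0.99 under library size scaling. Bradi3g06487 was at 202 and 465 CPM in cold, 24.4 and 21.9 CPM in control and 22.7 and 6.81 CPM in heat (4.50 ± 0.57). Its miR160f site at position 3322 of the transcript carried 1583 TP10M, 80.5% of the PARE abundance of that transcript. Bradi3g28950 was at 81.8 and 78.3 CPM in cold, 23.0 and 29.3 CPM in control and 24.1 and 20.1 CPM in heat (1.86 ± 0.17), and Bradi3g49320 at 33.2 and 42.9, 21.0 and 29.1 and 18.5 and 9.65 CPM (1.44 ± 0.29). Against control, cold was called higher in Bradi3g06487 and Bradi3g28950 (log2 fold change 3.85 and 1.61) but not in Bradi3g49320 (0.60, adjusted p = 0.168). Bradi2g52336, whose Level 3 site is for the 3p arm and carried 1.44% of the PARE abundance, was at 3.98 and 11.4 CPM in cold and 0.581 and 0.696 CPM in heat (3.56 ± 0.52). The weaker members were Bradi5g15904 (1.13 ± 0.34) and Bradi1g33160, with the B3 DNA-binding domain that auxin response factors carry (0.79 ± 0.21). Both lost the call without cold replicate 1 (adjusted p = 0.182 and 0.103) or heat replicate 2 (0.147 and 0.101) and under library size scaling (0.122 and 0.177). The remaining target, Bradi5g27400, was low in all libraries, at 1.44 and 1.57 CPM in cold and 2.96 and 1.44 CPM in heat, and was not called.

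**Figure D5:**
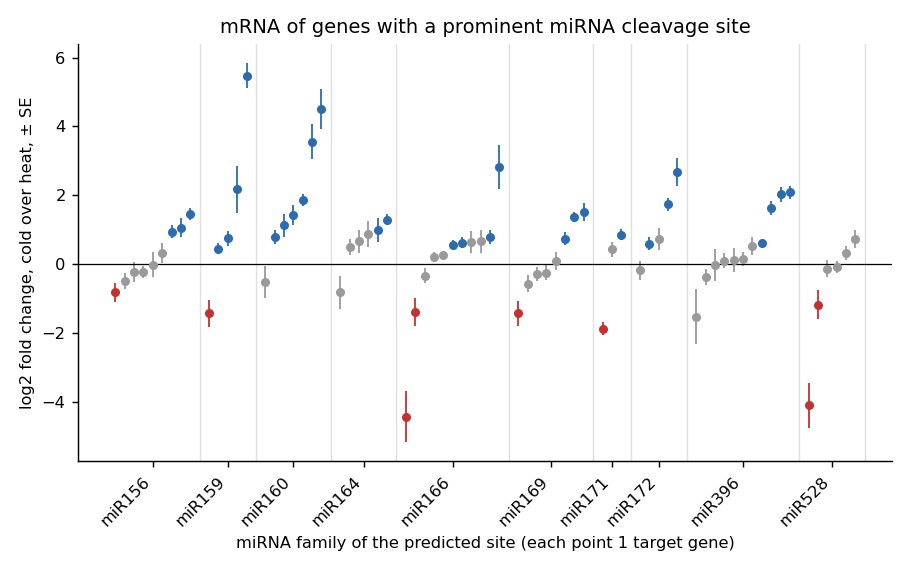
Log2 fold change of cold over heat with its SE for each tested gene with a Level 3 or 4 site of 10 miRNA families, grouped by family; blue genes were called higher in cold, red genes higher in heat and grey genes were not called. Of the 7 miR160 genes 6 are blue, and the 2 red miR528 genes include Bradi1g37600 at -4.11.

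The targets of the miR396 family in Arabidopsis and rice are the growth-regulating factors (GRF) of cell proliferation. Here 4 of 11 tested targets (36.4%) were higher in cold and 0 higher in heat, against 31.5% and 15.1% of all tested target genes. Their median of 0.14 became -0.30 under library size scaling, where 3 were higher in cold and 1 higher in heat. Differences of this and the next families from these shares were not tested. The gene the study annotates as a GRF, Bradi3g52547, was at 34.3 and 28.1 CPM in cold, 8.91 and 10.9 CPM in control and 7.44 and 7.91 CPM in heat (2.02 ± 0.23), and its site at position 592 carried 86.2% of the PARE abundance. Bradi3g57267 was at 28.8 and 22.3, 13.9 and 15.7 and 6.16 and 5.87 CPM (2.09 ± 0.18) and Bradi5g20607 at 36.3 and 28.9, 17.5 and 22.1 and 9.53 and 11.5 CPM (1.63 ± 0.21), each with control between the stresses. Bradi2g11230 was the fourth, at 81.3 and 89.6 CPM in cold and 59.1 and 53.4 CPM in heat, and lost the call under library size scaling (adjusted p = 0.333). Other members with abundant sites were not called, such as Bradi1g50597 (1406 TP10M, 0.14 ± 0.20) and Bradi4g16450 (896 TP10M, -0.37 ± 0.23), although library size scaling called the latter lower in cold (-0.80).

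In the miR169 family, which in Arabidopsis targets NF-YA subunits of the CCAAT-binding factor, 3 of 8 genes were higher in cold and 1 higher in heat. The shares of all tested target genes were 31.5% and 15.1%. Under library size scaling the miR169 counts turned to 2 and 4. The NF-YA gene of the study, Bradi1g11800, was at 81.8 and 89.6 CPM in cold, 52.9 and 45.2 CPM in control and 36.1 and 30.1 CPM in heat (1.37 ± 0.15), and differed from control in opposite directions in the stresses. Bradi3g57320 was at 21.4 and 17.0 CPM in cold and 6.27 and 7.21 CPM in heat (1.51 ± 0.26). The third gene higher in cold, Bradi1g49300 (0.73 ± 0.19), has a phosphofructokinase domain, and its site carried 4.24% of the PARE abundance. The count therefore holds genes other than NF-YA, and also Bradi1g55216, whose site is for the 3p arm. Bradi1g13680, which has the same CCAAT-binding domain as Bradi1g11800, went the other way, at 2.12 and 6.56 CPM in cold and 12.3 and 11.1 CPM in heat (-1.44 ± 0.37), and lost the call in a fit of the 4 cold and heat libraries alone (adjusted p = 0.0625).

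The miR172 family, known in Arabidopsis for AP2-like targets that act in flowering, had 3 of 5 genes higher in cold and 0 higher in heat. The shares of all tested target genes were 31.5% and 15.1%. Library size scaling gave 2 and 0 for miR172. Bradi5g24100 was at 101 and 51.8 CPM in cold, 28.4 and 37.5 CPM in control and 15.1 and 8.75 CPM in heat (2.68 ± 0.40). Bradi2g37800 was at 197 and 187, 185 and 164 and 49.9 and 65.6 CPM (1.73 ± 0.18), so that here heat stood apart from cold and control. For miR171, whose targets are GRAS genes, the calls went both ways. The GRAS gene of the study, Bradi3g50930, was at 47.0 and 52.7 CPM in cold and 29.3 and 26.0 CPM in heat (0.85 ± 0.16), Bradi1g52240 was at 3.13 and 3.67 CPM in cold and 13.0 and 12.1 CPM in heat with control at 16.0 and 15.7 CPM (-1.88 ± 0.18), and Bradi1g78230 was not called (0.43 ± 0.22), except without cold replicate 2 (0.67, adjusted p = 0.0490).

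The 3 families of this paragraph stand beside shares of 31.5% higher in cold and 15.1% higher in heat among all tested target genes. Of the miR156 family, which targets SPL factors that time the change from juvenile to adult growth, 3 of 9 genes were higher in cold and 1 higher in heat. These turned to 2 and 3 under library size scaling. Bradi2g59110 was at 26.2 and 24.9 CPM in cold and 10.3 and 8.26 CPM in heat (1.46 ± 0.17), and Bradi3g57080 at 152 and 102 CPM and 68.3 and 64.1 CPM. The site of Bradi3g57080 carried only 0.633% of the PARE abundance. The miR166 family had 4 of 11 genes higher in cold and 2 higher in heat, which turned to 1 and 3 under library size scaling. Those higher in cold included the homeobox gene Bradi1g13910 (0.78 ± 0.21) and Bradi3g28970 (0.62 ± 0.16), which lost the call without cold replicate 2 (adjusted p = 0.0617 and 0.0539) or heat replicate 2 (0.101 and 0.0985) and under library size scaling (0.199 and 0.393). Of 6 tested miR164 targets 2 were higher in cold and 0 higher in heat, the larger being Bradi4g42720 at 64.3 and 55.3 CPM in cold and 26.1 and 22.8 CPM in heat (1.29 ± 0.16).

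Differences were also read at predicted targets of other miRNAs, again chosen after their values were seen. Bradi5g13663, with a miR7753-5p site, was at 56.7 and 31.3 CPM in cold and 1.22 and 0.547 CPM in heat (5.65 ± 0.87). Bradi2g45920, a miR168-5p site gene, was at 43.3 and 19.2 CPM in cold, 1.02 and 1.03 CPM in control and 0.639 and 0.646 CPM in heat (5.58 ± 0.67), and Bradi2g06832, with a miR159c site, at 32.5 and 21.3, 0.391 and 0.752 and 0.813 and 0.398 CPM (5.48 ± 0.36). None of the 3 was called in heat against control. Their sites carried little PARE abundance, 13 TP10M in Bradi5g13663 and Bradi2g45920 and 11 TP10M in Bradi2g06832. The known target of miR168, AGO1a (Bradi3g51077), which loads miRNAs, had 1 TP10M at its site here and was at 15.3 and 16.6 CPM in cold and 16.3 and 15.3 CPM in heat, and its log2 fold change was 0.02 ± 0.16. On the heat side Bradi3g39630, with a miR7752-5p site, was at 81.5 and 88.7 CPM in cold, 168 and 161 CPM in control and 632 and 528 CPM in heat (-2.77 ± 0.17), and was called in opposite directions from control. Bradi1g77820, with a miR7738-3p site of 27 TP10M, was at 0.762 and 1.84 CPM in cold, 1.49 and 1.57 CPM in control and 25.6 and 11.2 CPM in heat (-3.82 ± 0.55). The multicopper oxidase gene Bradi1g37600 was at 4.49 and 22.5 CPM in cold, 7.82 and 11.6 CPM in control and 289 and 177 CPM in heat (-4.11 ± 0.66). Its miR528-5p site at position 2053 carried 57.5% of the PARE abundance, and miR528 is known in rice for targeting copper proteins. Of 6 tested miR528 targets 2 were higher in heat and 0 higher in cold, against 15.1% and 31.5% of all tested target genes. Bradi2g54210, the miR398b target, was higher in cold by 0.63 ± 0.18 and lost the call without cold replicate 2 (adjusted p = 0.0735), heat replicate 1 (0.0520) or heat replicate 2 (0.110) and under library size scaling (0.357).

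The remaining genes that the study names as targets moved little between the temperatures. The F-box gene LCR (Bradi2g59200, a miR394 target that acts in leaf shape in Arabidopsis) was at 42.3 and 44.0 CPM in cold and 27.7 and 29.1 CPM in heat (0.60 ± 0.13). A second F-box gene, the miR393 target Bradi5g08680 (a Level 2 site), was at 100.4 and 92.7 CPM and 63.2 and 61.9 CPM (0.63 ± 0.14). Cold lay above heat in both, and neither call held under library size scaling (adjusted p = 0.273 and 0.245). The auxin receptor TIR1 (Bradi2g35720), also a miR393 target, was at 65.8 and 55.6 CPM in cold and 45.3 and 42.2 CPM in heat (0.47 ± 0.17, adjusted p = 0.0474) and lost the call without cold replicate 1 (adjusted p = 0.228), heat replicate 1 (0.111) or heat replicate 2 (0.184) and under library size scaling (0.865). SPL11 (Bradi3g05510, -0.23 ± 0.18) and the unannotated targets Bradi2g28153 (-0.30 ± 0.22) and Bradi2g38552 (-0.03 ± 0.36) were not called, and the first pair was called lower in cold under library size scaling (-0.67 and -0.74). Their cold and heat libraries overlapped or lay close together, at 20.2 and 17.8 and 23.8 and 20.9 CPM in SPL11.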

How the data were processed

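RNA was sequenced from 2 biological replicates in each of 5 conditions. The authors aligned reads with STAR 2.5.3a to the B. distachyon v3.1 genome and estimated expected counts and TPM per gene with RSEM 1.2.31; both were deposited per library, without pooling. The kit marks strand, but the setting used for counting is not given in the sources used here, so antisense neighbours may share reads. Rounding of the expected counts, filterByExpr and TMM scaling came before the test. All 10 libraries entered 1 quasi-likelihood fit of edgeR 4.0.16 in R 4.3.3, with 5 residual degrees of freedom and Benjamini-Hochberg adjustment over 23494 of 34310 genes. The standard error is the log2 fold change divided by the root of the F statistic. DESeq2 1.42.0 and limma 3.58.1 with voom, other scalings, filters and sample sets, and the removal of each library were alternatives. Means and standard deviations of 2 libraries carry little precision, so both values are given. The p-values rest only on the spread between libraries, estimated over all 10.

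PARE sites came from the deposited site table, in which the authors give an abundance score in TP10M and a fraction of the PARE abundance of the transcript, printed here as a percent, with 1 value per site over all libraries; their reads were mapped with Bowtie 0.12.7. The site table, and not the 34 PARE libraries, was used. Where a gene had several sites, the one of highest level and abundance was described.

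None of the 34310 IDs is found among the 31335 entries of the RefSeq gene table, so IDs are used as names. Pfam domains for 1099 genes came from a shortened supplementary table of predicted miRNA targets. Promoter motifs were not analysed here. Named genes were the 6 largest changes in each direction with nonoverlapping libraries and a mean of at least 10 CPM, the 3 of highest TPM in each direction that differed by at least 1 on the log2 scale, up to 2 called genes in each direction of 36 lists, and 10 targets named by the study. Others, and 11 of the domain groups, were added after their values were seen. Members and lists were chosen with earlier results of these data known.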

Additional observations from a re-analysis of the deposited data

How the results depend on the processing

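The contrast of cold and heat gave 9923 genes, and no called gene was called in the opposite direction under any alternative. Replacing the test or the set of libraries gave 8806 (DESeq2, in which 8073 genes had no adjusted p), 9963 (limma with voom), 8422 (4 libraries) and 10050 (6 libraries), an adjusted p under 0.01 gave 5874, and a log2 fold change of at least 1 as well gave 6045. Library size scaling gave 2787 genes higher in cold and 9515 higher in heat, and 155 of the called genes changed sign. Upper quartile scaling gave 3776 and 6748. Removing 1 library left 6685 to 8107 genes, with 3085 to 3688 higher in heat. Against control, removing 1 library left 2269 to 4712 genes in cold, with 1404 to 2897 higher and 865 to 1815 lower in cold, and 713 to 1992 in heat, with 297 to 967 higher and 416 to 1025 lower in heat. Genes lower in cold than in control numbered 4906 under library size scaling and 3565 under upper quartile scaling, and genes higher in heat than in control 3249 under library size scaling. Control lay between the stresses for 844 genes higher in cold under library size scaling and 1351 under upper quartile scaling, and for 5144 genes higher in heat under library size scaling. Causes of these changes were not tested. Of 124 named genes 116 were called, 92 of them in every alternative that tested them (Bradi4g35655 was not tested in 2). The other 24 lost the call in at least 1, and Bradi1g44760 changed sign to -0.073 under library size scaling. Whether same-numbered libraries were grown or prepared together is not given in the sources used here, and the main fit treated them as unpaired. Deviations of same-numbered libraries correlated at -0.096 between cold and heat, 0.137 between control and cold and -0.147 between control and heat. Low correlations over all genes cannot exclude a pairing. A replicate block gave 9420, 4772 and 3569 genes for cold against heat, cold against control and heat against control, and the last gave 4354 with the heat numbers crossed, an alternative chosen after seeing the data. With 2 libraries a group, small differences and genes near 0 counts are the least certain.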
